A study of Rattus norvegicus with 18 samples.

Results

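The same osmotic step can meet rat inner medullary collecting duct (IMCD) cells in different starting states, and the difference between the responses of 2 such cultures is described here. Genes were read as responding differently where the change of the 900 challenge against the 600 culture differed from the change of the 600 challenge against the 300 culture. The contrast uses 12 of the 18 arrays of the series, 3 in each of 4 groups, all of them without drug. In the 900 challenge, cells grown at 600 mosmol/kg were exposed to 900 mosmol/kg for 24 h. The 600 culture was grown at 600 mosmol/kg and is the starting point of that step. In the 600 challenge, cells grown at 300 mosmol/kg were exposed to 600 mosmol/kg for 24 h, and the 300 culture is its starting point. The other 6 arrays hold both challenges with the calcineurin inhibitor cyclosporin A at 5 µM; in the comparison of the steps they enter only the estimate of the spread. All groups are primary rat IMCD cells with no allele or transgene named in the labels. Each step added 300 mosmol/kg, which is 1.5-fold in the step to 900 and 2-fold in the step to 600, so starting culture, end point and relative size of the step cannot be told apart. A mock step that left the osmolality as it was is not among the groups. Nothing in the labels ties the 3 arrays of a group to separate animals or cultures. The p-values therefore rest on the spread among arrays alone, and that spread may be technical.

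Collecting duct cells of the inner medulla live in the saltiest fluid of the body. They withstand it by taking up or making small organic solutes (osmolytes), by ion transport that restores cell volume, and by chaperones. A rise in osmolality also strains protein folding and translation, and stress kinases that phosphorylate the initiation factor eIF2 let the transcription factor ATF4 switch on genes of amino acid supply and its target CHOP. Prostaglandin E2, made by cyclooxygenases and prostaglandin E synthases, is a local mediator of the medulla that protects its cells and opposes water reabsorption.

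The values are logarithms of unstated base, so levels and differences are given in log units, where 1 unit is 2-fold for base 2 and 2.72-fold for natural logarithms. Array medians lay between 3.564 and 3.649 and the median SD within a group between 0.108 and 0.121. Levels under the lower quartile of the arrays (2.476 to 2.696) are not shown to stand above background. The mean level of 22 markers of principal cells and urine concentration was 5.687 to 5.734 on the arrays of the 900 challenge, 5.350 to 5.531 in the 600 culture, 4.135 to 4.149 in the 600 challenge and 3.995 to 4.051 in the 300 culture. The vasopressin-regulated water channel gene Aqp2, a defining marker, lay under the lower quartile in the 600 challenge and the 300 culture, and Scnn1b and Scnn1g, subunits of the epithelial sodium channel, in all 4 groups. The mean of 20 leukocyte markers was 3.432 to 3.458 in the 900 challenge, 4.405 to 4.483 in the 600 culture, 4.354 to 4.474 in the 600 challenge and 5.665 to 5.730 in the 300 culture. In these bulk samples, fewer cells of a type and less RNA per cell cannot be told apart.

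Of 28328 features, 2148 (7.58%) differed between the steps in limma's moderated test with a Benjamini-Hochberg adjusted p under 0.05. The difference between the steps is the step to 900 minus the step to 600. It is positive for a stronger rise or a weaker fall in the step to 900. It is also positive for a rise in the step to 900 with a fall in the step to 600. It was positive for 997 features (3.52%) and negative for 1151 (4.06%), a split that turned to 966 positive and 818 negative after centring the arrays and to 1122 and 1077 after quantile normalization. It reached 1 log unit in 178 of the positive and 79 of the negative calls. The median difference over all features was -0.03, the median size of a called one 0.52 and the smallest called one 0.19, beside a median SE of 0.17. For 258 called features at least 1 group mean lay under a level of 2.605, the lower quartile of the median array, so the size of those differences is less sure. Features called in both steps mostly kept their direction: of 2044 such features, 1843 moved the same way and 201 moved in opposite directions.

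The calls fell into 9 classes by what each step did alone. The largest held 581 features that fell in the step to 900 and were not called in the step to 600. A further 354 rose in the step to 900 and were not called in the step to 600. In turn, 315 fell in the step to 600 and 272 rose in it without a call in the step to 900. Another 225 fell in both steps by different amounts and 93 rose in both, while 107 were called in neither step alone. Opposite directions were called for 108 features that rose in the step to 900 and fell in the step to 600 (0.381% of all features), and for 93 that fell in the step to 900 and rose in the step to 600 (0.328%). For comparison, the step to 900 alone called 1822 features up (6.43%) and 3112 down (11.0%), and the step to 600 alone called 1801 up (6.36%) and 2286 down (8.07%). Leaving out single arrays moved some of these counts: the 1151 negative calls became 715 without replicate 2 of the 600 culture and 737 without replicate 1 of the 300 culture, and the 93 became 60 without replicate 1 or 3 of the 300 culture. A missing call in 1 step does not show that a gene did not move there.

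**Figure D1:**
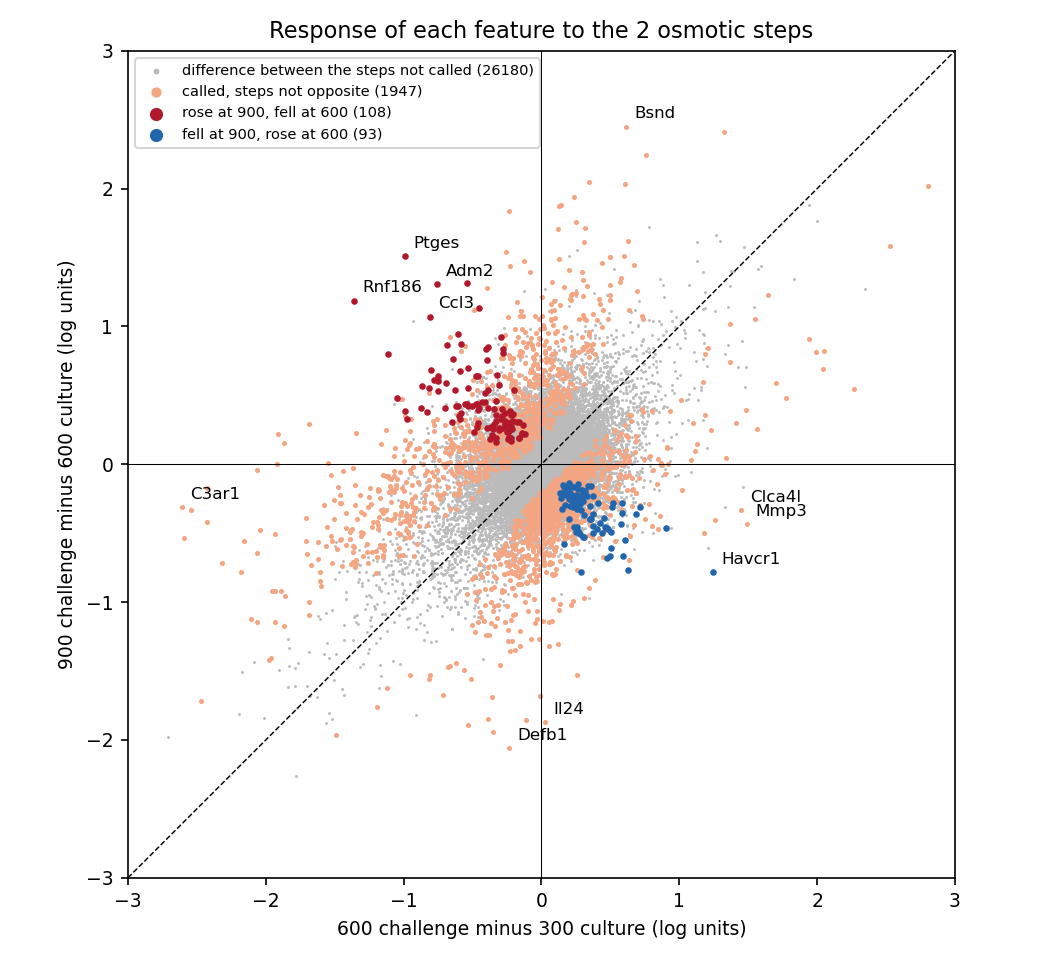
Response of all 28328 features to the step to 900 mosmol/kg (y axis, 900 challenge minus 600 culture) and to the step to 600 mosmol/kg (x axis, 600 challenge minus 300 culture), both in log units. On the dashed line both responses are equal; pale points are the called features whose steps are not opposite, and the dark points in the upper left and lower right hold the 108 and 93 features with opposite directions.

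**Figure D2:**
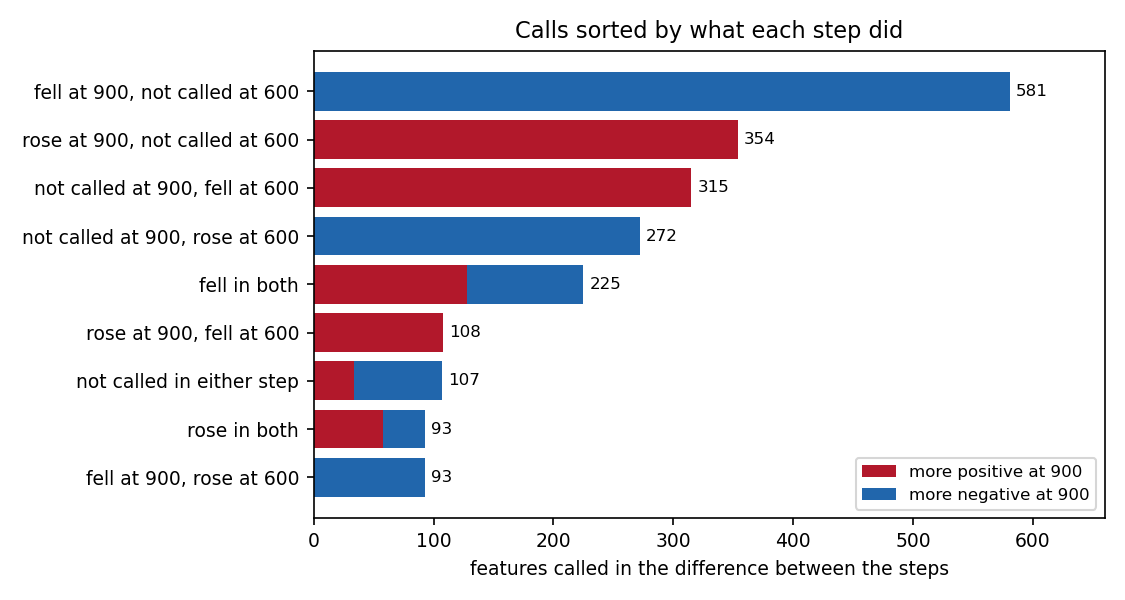
Number of called features in each class of step responses (x axis), with the share that is more positive in the step to 900 in red and more negative in blue. The longest bar is that of the 581 features that fell in the step to 900 and were not called in the step to 600.

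The widest opposite response was that of Rnf186, a membrane-bound ubiquitin ligase of the endoplasmic reticulum. Its level was 5.93, 6.01 and 5.97 in the 900 challenge, against 5.14, 4.44 and 4.76 in the 600 culture. It was 3.75, 3.61 and 3.57 in the 600 challenge, against 5.16, 4.98 and 4.88 in the 300 culture. Both cultures thus started near the same level, and the challenged groups lay above and below it with no overlap. The steps were 1.19 ± 0.17 and -1.36 ± 0.17 log units (SE, n = 3 per group), and their difference of 2.55 ± 0.23 (adjusted p = 1.62e-05) was the largest of any named gene.

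Ptges, the inducible prostaglandin E synthase that works after the cyclooxygenases, had the next largest difference. Its level was 4.92, 4.93 and 4.88 in the 900 challenge, against 3.76, 3.35 and 3.08 in the 600 culture. It was 3.51, 3.43 and 3.75 in the 600 challenge, against 4.66, 4.49 and 4.52 in the 300 culture. The 600 mosmol/kg groups were low whether the cells had been grown there or moved there, and no groups of a step overlapped. The steps differed by 2.50 ± 0.19 log units (adjusted p = 3.17e-06). Slco2a1, a prostaglandin uptake carrier, also went in opposite directions, with 3.64, 3.85 and 3.71 in the 900 challenge against 3.20, 3.14 and 3.42 in the 600 culture, and 2.55, 2.66 and 2.36 in the 600 challenge against 3.42, 3.60 and 3.69 in the 300 culture. That difference was 1.53 ± 0.14 (adjusted p = 1.19e-05), and the mean of the 600 challenge lay under the lower quartile.

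Of the prostaglandin list's 17 measured members, 5 were more positive in the step to 900 and none was more negative, with a median of 0.32 against -0.03 over all features. Of all features, 3.52% were more positive and 4.06% more negative. Besides Ptges and Slco2a1 these were the constitutive cyclooxygenase gene Ptgs1 (0.46 ± 0.08), Ptgds, a prostaglandin D synthase (0.71 ± 0.15), and Ptgir, the prostacyclin receptor (0.90 ± 0.12). Ptgs1 rose by 0.63 in the step to 900 and had 0.17 in the step to 600 without a call, whereas Ptgir fell in both steps, by 0.47 and by 1.37. The inducible cyclooxygenase gene Ptgs2 had 1.77 ± 0.11 in the step to 900 and 2.00 ± 0.11 in the step to 600, both called, and the difference of -0.23 ± 0.15 did not pass (adjusted p = 0.434). The prostanoid exporter gene Abcc4 had 0.95 and 1.04, again without a called difference (-0.09 ± 0.07). Ptges was therefore apart from Ptgs2 in the step to 600, where it fell while Ptgs2 rose.

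Another 8 genes were named for rising in the step to 900 and falling in the step to 600. Ccl3, a chemokine gene of leukocytes, had 4.61, 4.61 and 4.55 in the 900 challenge against 3.51, 3.70 and 3.35 in the 600 culture, and 5.11, 5.11 and 5.25 in the 600 challenge against 5.96, 6.001 and 5.93 in the 300 culture. Its difference was 1.88 ± 0.11 (adjusted p = 5.6e-07), while the leukocyte markers as a group fell in both steps. Adm2, a peptide hormone of the adrenomedullin family, had 4.60, 4.59 and 4.88 in the 900 challenge against 3.60, 3.12 and 3.43 in the 600 culture, and 2.89, 3.36 and 2.86 in the 600 challenge against 3.83, 3.78 and 3.77 in the 300 culture (2.06 ± 0.22, adjusted p = 4.7e-05). The others were Ttc22, a tetratricopeptide repeat protein (1.92), the protease gene Ctse (1.55), the cation channel gene Trpm2 (1.55), the esterase gene Iah1 (1.41), the ammonia transporter gene Rhbg (1.36) and the kinase gene Pak6 (1.26). In all 10, the groups of each step did not overlap. Ttc22 in the 600 challenge, Trpm2 in the 600 culture and the 600 challenge, and Rhbg in the 600 challenge and the 300 culture lay under the lower quartile.

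In the other direction, Havcr1 led. It encodes KIM-1, a receptor that injured kidney tubules put on their surface. Its level was 5.02, 4.81 and 5.46 in the 900 challenge, against 5.74, 5.95 and 5.96 in the 600 culture. It was 6.55, 6.32 and 6.50 in the 600 challenge, against 5.40, 5.31 and 4.91 in the 300 culture. The highest values were those of the 600 challenge, and the groups of each step did not overlap. The steps were -0.79 ± 0.15 and 1.25 ± 0.15, with a difference of -2.03 ± 0.21 (adjusted p = 4.45e-05).

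Pkp1, a plakophilin of the desmosomes that join epithelial cells, had the smallest SE among the 10 genes named for this direction. It had 6.64, 6.80 and 6.80 in the 900 challenge against 7.16, 7.28 and 7.27 in the 600 culture, and 7.77, 7.79 and 7.75 in the 600 challenge against 7.25, 7.28 and 7.26 in the 300 culture. Both cultures had nearly the same level, and the steps of -0.49 and 0.50 differed by -0.99 ± 0.09 (adjusted p = 1.91e-05). The remaining 8 were Tmc5, a transmembrane channel-like gene (-1.36), Klhl29 (-1.11), Simc1 (-0.94), the lectin receptor gene Clec4d (-0.93), the membrane carbonic anhydrase gene Car4 (-0.93), the kinase gene Dapk2 (-0.91), the co-chaperone gene Bag2 (-0.85) and the adrenergic receptor gene Adra1d (-0.84). Bag2 was the exception to separate groups: its 900 challenge and 600 culture overlapped.

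**Figure D3:**
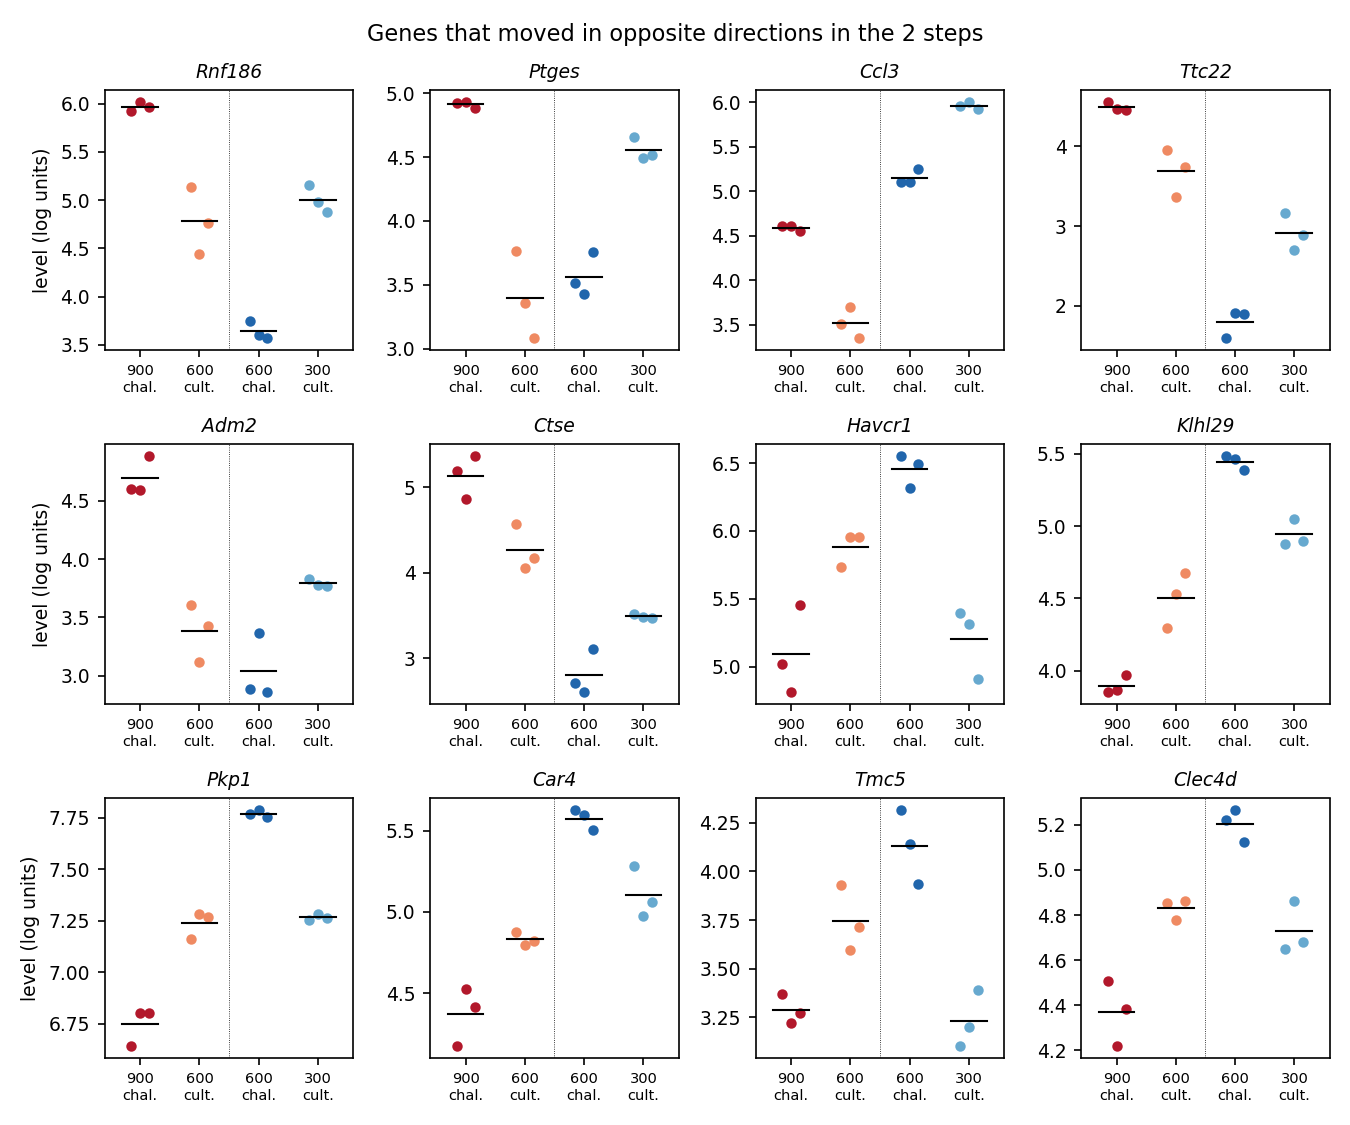
Level of 12 genes that moved in opposite directions, in log units on the y axis, with 1 point per array and a bar at the group mean, for the 900 challenge, its 600 culture, the 600 challenge and its 300 culture from left to right. The first 6 genes are above their culture at 900 and below it at 600, and the last 6, beginning with Havcr1, the reverse; each axis has its own range.

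Most of the other genes with the largest positive differences are known from myeloid cells. They fell in the step to 600 and were already low in the 600 culture. C3ar1, a receptor for a complement fragment, had 2.30, 2.49 and 2.28 in the 900 challenge against 2.50, 2.78 and 2.74 in the 600 culture, and 2.32, 1.93 and 2.31 in the 600 challenge against 4.83, 4.88 and 4.68 in the 300 culture. Only the 300 culture was clearly above the lower quartile, and the difference of 2.29 ± 0.20 (adjusted p = 1.21e-05) comes from the fall of 2.61 in the step to 600. The same calls held for the chemokine gene Ccl6 (2.25), the kinase gene Fgr (2.13), the calprotectin gene S100a8 (2.03), the macrophage scavenger receptor gene Cd163 (2.02) and RT1-DMb of antigen presentation (2.00): each fell in the step to 600 and none was called in the step to 900. Means lay under the lower quartile for Ccl6 in both groups of the step to 900 and for Fgr in the 600 challenge. For S100a8 they did so in all groups but the 300 culture, so a further fall could hardly show there. The growth factor gene Fgf18 differed from them. It rose by 1.84 in the step to 900, with 4.51, 4.71 and 4.69 in the 900 challenge against 2.79, 2.72 and 2.88 in the 600 culture, and was low in both groups of the step to 600 (2.00 to 2.61). Its difference was 2.08 ± 0.20 (adjusted p = 1.91e-05). Both of its means in the step to 600 lay under the lower quartile, so a fall there could hardly show.

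The leukocyte list as a whole did not behave as these genes did. Of its 20 measured members, 17 fell in the step to 900 and 17 in the step to 600, beside 11.0% and 8.07% of all features. In the difference 6 were more positive (Tyrobp, Aif1, C1qa, C1qb, C1qc and C3ar1) and 3 more negative (Ptprc, Csf1r and Itgam), with a median of 0.16. The shares of all features were 3.52% and 4.06%. Ptprc, the common leukocyte phosphatase CD45, fell by 0.86 in the step to 900 and had -0.10 without a call in the step to 600, a difference of -0.76 ± 0.14. C1qb, a chain of complement C1q made by macrophages, fell by 0.71 and by 1.52, a difference of 0.81 ± 0.11. The call was lost in 10 of the 12 fits that left out an array for C1qa, in 8 for Tyrobp, in 6 for Itgam and, without replicate 2 of the 600 culture, for C1qc. Group means of 6 list members lay under the lower quartile in the 900 challenge and of 3 in the 600 challenge, which can make their falls look smaller.

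Among the largest negative differences, 4 genes fell in the step to 900 and were not called in the step to 600. The antimicrobial peptide gene Defb1 had 3.26, 3.56 and 3.44 in the 900 challenge against 5.53, 5.49 and 5.42 in the 600 culture, and 3.12, 3.64 and 3.39 in the 600 challenge against 3.70, 3.57 and 3.58 in the 300 culture. It was high in the 600 culture alone, and the difference was -1.83 ± 0.18 (adjusted p = 2.58e-05). Sertad4 had 2.79, 2.96 and 3.05 in the 900 challenge against 4.67, 4.92 and 4.78 in the 600 culture, and 6.18 to 6.39 in all 6 arrays of the step to 600, a difference of -1.74 ± 0.12 (adjusted p = 1.82e-06). The cytokine gene Il24 (-1.89) and the ligand gene Wnt5b (-1.68) had the same order of groups as Sertad4, with the 600 challenge and the 300 culture high, the 600 culture between and the 900 challenge low. Another 5 rose in the step to 600 and were not called in the step to 900: the stromelysin gene Mmp3 (-1.92), Clca4l, of the family of chloride channel regulators (-1.78), the protease inhibitor gene Serpinb2 (-1.72), the xenobiotic-metabolising Cyp1a1 (-1.68) and the protease-activated receptor gene F2rl1 (-1.66). The call for Serpinb2 was lost in a fit of the 12 arrays alone, and that for F2rl1 in 8 of the 12 fits that left out an array. The means of Wnt5b and Clca4l in the 900 challenge lay under the lower quartile, so the size of those differences is less sure.

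Among the lists, those of ATF4 and CHOP targets and of interferon response genes held the most members that differed between the steps. Of 26 measured ATF4 and CHOP targets, 13 were more positive in the step to 900 and 1 more negative, with a median of 0.31. In the step to 900, 15 rose and 2 fell (median 0.31), and in the step to 600, 4 rose and 9 fell (median -0.15). Of all features, 3.52% were more positive and 4.06% more negative in the difference. The step to 900 called 6.43% up and 11.0% down, and the step to 600 called 6.36% up and 8.07% down. The 4 with opposite calls were Trib3, a pseudokinase that feeds back on this response, and Psat1, Phgdh and Mthfd2, enzymes of serine synthesis and of mitochondrial folate metabolism. Trib3 had 3.48, 3.51 and 3.60 in the 900 challenge against 2.70, 2.22 and 2.27 in the 600 culture, and 2.94, 2.62 and 2.61 in the 600 challenge against 3.21, 3.09 and 3.23 in the 300 culture. The groups of each step did not overlap, and the difference was 1.58 ± 0.18 (adjusted p = 0.000119). The mean of the 600 culture, 2.398, lay under the lower quartile, so the size of the rise in the step to 900 is less sure. Chac1, which degrades glutathione, had 3.35, 3.54 and 3.38 in the 900 challenge against 3.00, 1.81 and 2.11 in the 600 culture, and 2.11, 1.79 and 2.34 in the 600 challenge against 2.65, 2.86 and 2.21 in the 300 culture. Its difference of 1.61 ± 0.35 (adjusted p = 0.0122) rests on 3 groups with means under the lower quartile, and the call was lost in an unmoderated fit of the 12 arrays.

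The promoters of these genes are shown because Trib3 and Chac1 had the largest differences in the list. They hold a match to the letters of the element that ATF4 binds with C/EBP proteins. The windows run from 250 bases before to 50 after the RefSeq gene start (assembly GRCr8), 5′ to 3′ on the gene's strand, with matches to TGATGNAA on either strand in capitals. They lie at chr3:161275484-161275783 (minus strand) for Trib3 and chr3:126795881-126796180 (plus strand) for Chac1.
Trib3: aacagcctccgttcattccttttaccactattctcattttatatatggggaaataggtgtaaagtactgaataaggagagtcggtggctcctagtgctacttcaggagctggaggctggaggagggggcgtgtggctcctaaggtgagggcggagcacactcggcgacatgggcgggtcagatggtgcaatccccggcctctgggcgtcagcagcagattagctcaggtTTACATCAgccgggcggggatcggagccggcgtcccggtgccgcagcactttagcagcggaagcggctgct
Chac1: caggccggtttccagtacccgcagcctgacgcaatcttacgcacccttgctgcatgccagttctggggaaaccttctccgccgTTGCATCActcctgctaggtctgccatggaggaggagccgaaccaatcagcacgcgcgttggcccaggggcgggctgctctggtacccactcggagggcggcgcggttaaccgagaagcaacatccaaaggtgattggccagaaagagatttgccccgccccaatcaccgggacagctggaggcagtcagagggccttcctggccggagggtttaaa
The match begins 21 bases before the start in Trib3 and 167 before it in Chac1, in both as the reverse complement. A match was found in 4 of the 12 promoters available for the 13 members that were more positive (33.3%), the others being Slc7a1 and Aars1, in 6 of 22 over the measured list (27.3%) and in 3.98% of all 33469 promoter windows. The 8 promoters available for the 10 genes named for rising in the step to 900 and falling in the step to 600 held none. A match is a description of these letters and not a binding site.

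Psat1 had 7.06, 7.09 and 7.09 in the 900 challenge against 6.67, 6.49 and 6.53 in the 600 culture, and 5.67, 5.85 and 5.72 in the 600 challenge against 6.03, 6.21 and 6.24 in the 300 culture (0.93 ± 0.10, adjusted p = 3.71e-05). A second, dimmer Psat1 feature had a difference of 1.06 that did not pass (adjusted p = 0.134). Its steps were 1.115 to 900 and 0.052 to 600, so it did not show the fall in the step to 600. Phgdh differed by 0.96 and Mthfd2 by 0.92 on its brighter feature, the asparagine synthetase gene Asns by 0.77 and the leucine transporter gene Slc7a5 by 0.79. Slc7a5 fell by 0.70 in the step to 600 and had 0.09 without a call in the step to 900. Atf4 itself had 0.22 and -0.16, a called difference of 0.38 ± 0.10 (adjusted p = 0.0263) that was lost in 8 of the 12 fits that left out an array. Ddit3, which encodes CHOP, had 0.62 in the step to 900 and 0.35 in the step to 600, and the difference of 0.27 ± 0.17 did not pass (adjusted p = 0.412). Nupr1, a stress-induced chromatin protein, rose by 1.04 and by 1.01. The 1 member more negative in the step to 900 was the stress cytokine gene Gdf15, which rose by 0.91 in the step to 600 and had 0.12 without a call in the step to 900 (-0.79 ± 0.16), with a call lost in the unmoderated fit.

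Folding factors of the endoplasmic reticulum moved by smaller amounts in the same direction. Of 21 measured members, 8 were more positive in the step to 900 and none more negative (median 0.16), beside 3.52% and 4.06% of all features. They were Sdf2l1 (1.05 ± 0.19), Herpud1 (0.77 ± 0.19), the transcription factor gene Xbp1 (0.52 ± 0.06), Creld2 (0.43), Dnajb11 (0.34), Hspa5, the lumenal chaperone BiP (0.30 ± 0.05), Hyou1 (0.29) and the lectin chaperone gene Calr (0.21). Xbp1 was the member with opposite calls, at 7.31, 7.24 and 7.25 in the 900 challenge against 7.09, 7.10 and 7.05 in the 600 culture, and 7.07, 7.06 and 7.08 in the 600 challenge against 7.42, 7.37 and 7.42 in the 300 culture. Its groups did not overlap in either step. The calls for Hyou1 and Calr were each lost in 11 of the 12 fits that left out an array, and that for Herpud1 in 3.

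Of 27 measured interferon response genes, 13 were more positive in the step to 900 and 1, the transcription factor gene Irf1, was more negative (-0.57 ± 0.07), with a median of 0.53. In the step to 900, 14 rose and 3 fell, and in the step to 600, 2 rose and 9 fell. For all features the shares up and down were 3.52% and 4.06% in the difference. They were 6.43% and 11.0% in the step to 900, and 6.36% and 8.07% in the step to 600. The 5 with opposite calls were Usp18, which removes ISG15 from proteins, the antiviral genes Mx2 and Rsad2, the sensor gene Dhx58 and Irf9, a subunit of the factor that interferons activate. For Mx2 the groups of the step to 600 overlapped, with 3.884, 3.948 and 4.314 in the 600 challenge against 4.671, 4.145 and 4.517 in the 300 culture. Usp18 had 5.99, 5.63 and 5.74 in the 900 challenge against 5.29, 5.21 and 5.27 in the 600 culture, and 3.69, 3.45 and 3.62 in the 600 challenge against 4.43, 4.30 and 4.29 in the 300 culture. The groups of each step did not overlap, and the difference was 1.28 ± 0.14 (adjusted p = 6.26e-05). Oasl, of the oligoadenylate synthetase family, had 5.51, 5.32 and 5.25 in the 900 challenge against 4.43, 4.06 and 4.40 in the 600 culture, and 2.72, 2.60 and 2.62 in the 600 challenge against 3.06, 2.95 and 2.65 in the 300 culture (1.31 ± 0.17, adjusted p = 0.000265). The groups of the step to 600 overlapped, and both were far below the 600 culture. The calls for Irf7 and Ifi27 were lost in 3 of the 12 fits that left out an array each. Leukocyte markers, given above, were lower in the challenge than in its culture in both steps, and their part in these differences was not tested.

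The promoter of Oas1a, an oligoadenylate synthetase gene more positive in the step to 900 (0.68 ± 0.12), is shown for a pair of overlapping matches to GAAANNGAA, the core of the element bound by complexes of IRF and STAT factors. It lies at chr12:41330216-41330515 on the plus strand (RefSeq, GRCr8), with the matches on that strand in capitals.
Oas1a: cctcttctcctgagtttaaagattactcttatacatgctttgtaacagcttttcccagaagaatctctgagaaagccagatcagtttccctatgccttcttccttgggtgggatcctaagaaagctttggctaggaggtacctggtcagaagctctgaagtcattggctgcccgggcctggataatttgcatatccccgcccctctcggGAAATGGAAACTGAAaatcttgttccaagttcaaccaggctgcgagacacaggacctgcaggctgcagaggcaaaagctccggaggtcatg
A match on either strand was found in 4 of the 8 promoters available for the more positive members, in 13 of 20 over the measured list (65.0%) and in 9.71% of all promoter windows. The share was thus no higher among the called members than in the list they came from.

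Cytokine genes and feedback genes of NF-kB were also more often positive, with 7 of 18 measured members more positive and 1 more negative (median 0.33). The shares of all features were 3.52% and 4.06%. Il1b, which encodes interleukin 1 beta, had 3.20, 2.77 and 2.74 in the 900 challenge against 2.60, 2.37 and 2.57 in the 600 culture, and 5.08, 4.94 and 5.02 in the 600 challenge against 5.90, 6.07 and 6.05 in the 300 culture. The groups did not overlap, the cells of the step to 900 were lower throughout, and the difference was 1.38 ± 0.16 (adjusted p = 9.21e-05). The mean of the 600 culture, 2.516, lay under the lower quartile, so the size of the rise in the step to 900 is less sure. The inhibitor gene Nfkbia rose by 0.19 in the step to 900 and fell by 0.16 in the step to 600 (0.35 ± 0.07). The chemokine gene Ccl20 rose in both, by 1.35 and 0.58 (0.77 ± 0.11). The cytokine genes Il6 and Il18 fell in both steps and less in the step to 900, Il6 by 0.53 and 0.95 (0.42 ± 0.09) and Il18 by 0.85 and 1.61 (0.76 ± 0.16). The growth factor gene Csf1, which macrophages depend on, was the 1 more negative member and went the other way in each step, -0.58 and 0.16 (-0.74 ± 0.07). The mean of the leukocyte markers, given above, was lower in the challenge than in its culture in both steps, and its part in these differences was not tested. The call for Ccl2 was lost in 10 of the 12 fits that left out an array.

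**Figure D4:**
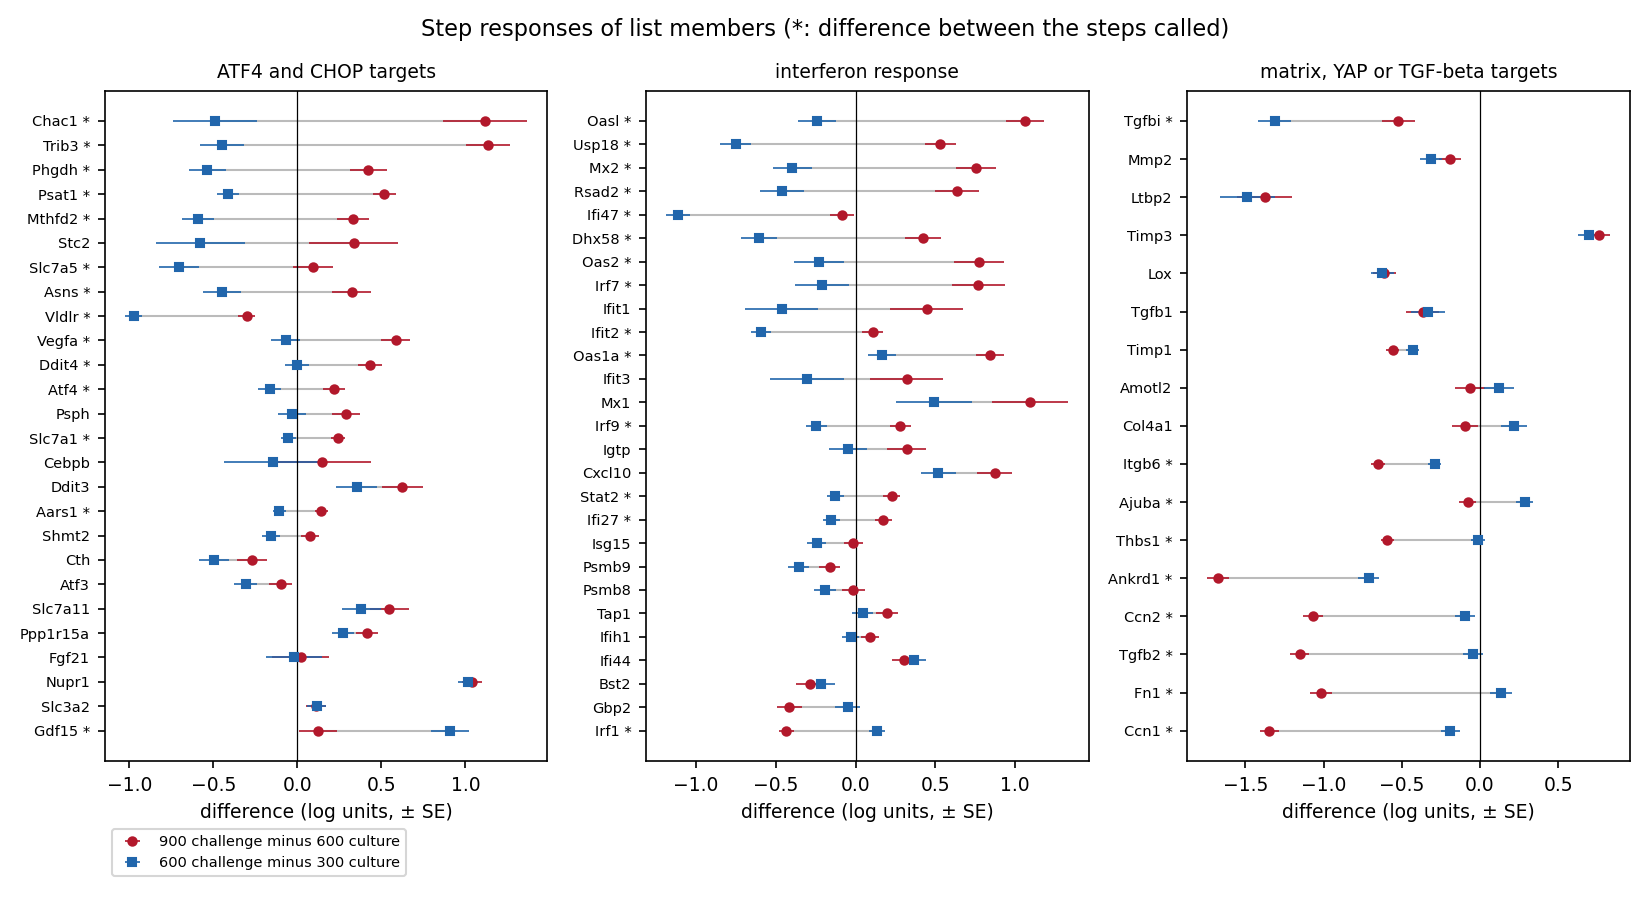
Change of each measured member of 3 gene lists in the step to 900 (red circles) and in the step to 600 (blue squares), in log units with its SE on the x axis, ordered by the difference between the steps; an asterisk marks a called difference. In the first 2 panels most red circles lie to the right of their blue squares, and in the third panel 8 of the 9 called members have the red circle on the left.

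Matrix genes and targets of YAP and TGF-beta leaned the other way. Of 17 measured members, 8 were more negative in the step to 900 and 1 more positive (median -0.31). In the step to 900, 12 fell and 1 rose, and in the step to 600, 8 fell and 2 rose. For all features the shares down and up were 4.06% and 3.52% in the difference. They were 11.0% and 6.43% in the step to 900, and 8.07% and 6.36% in the step to 600. Ccn1, a matricellular protein and YAP target, had 6.10, 6.25 and 6.33 in the 900 challenge against 7.48, 7.60 and 7.63 in the 600 culture, and 7.998, 7.93 and 7.93 in the 600 challenge against 8.15, 8.13 and 8.15 in the 300 culture. Both steps lowered it without overlap, by 1.35 and by 0.19, and the difference was -1.16 ± 0.08 (adjusted p = 3.05e-06). Fn1, which encodes fibronectin, had 6.92, 7.18 and 7.02 in the 900 challenge against 7.92, 8.11 and 8.14 in the 600 culture, and 8.60, 8.64 and 8.66 in the 600 challenge against 8.49, 8.52 and 8.49 in the 300 culture (-1.15 ± 0.10, adjusted p = 7.96e-06). The growth factor gene Tgfb2 (-1.11), Ccn2 (-0.97), Ankrd1 (-0.96), the thrombospondin gene Thbs1 (-0.58), Itgb6 (-0.36) and Ajuba (-0.36) were the other 6. Tgfbi, a TGF-beta-induced matrix gene, was the 1 member on the other side (0.79 ± 0.15): it fell by 0.52 in the step to 900 and by 1.31 in the step to 600. Fibroblast and smooth muscle markers did not share the direction of the matrix list, since 5 of 18 were more positive and none more negative (median 0.15), namely Postn (0.71), S100a4 (0.56), Pdgfrb (0.45), Col3a1 (0.34) and Col1a2 (0.26), the calls for S100a4, Col3a1 and Col1a2 being lost in 7, 9 and 10 of the 12 fits that left out an array. Their mean level was 5.141 to 5.274 in the 900 challenge, 5.827 to 5.880 in the 600 culture, 5.270 to 5.338 in the 600 challenge and 6.102 to 6.136 in the 300 culture, and its part in the matrix result was not tested.

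**Figure D5:**
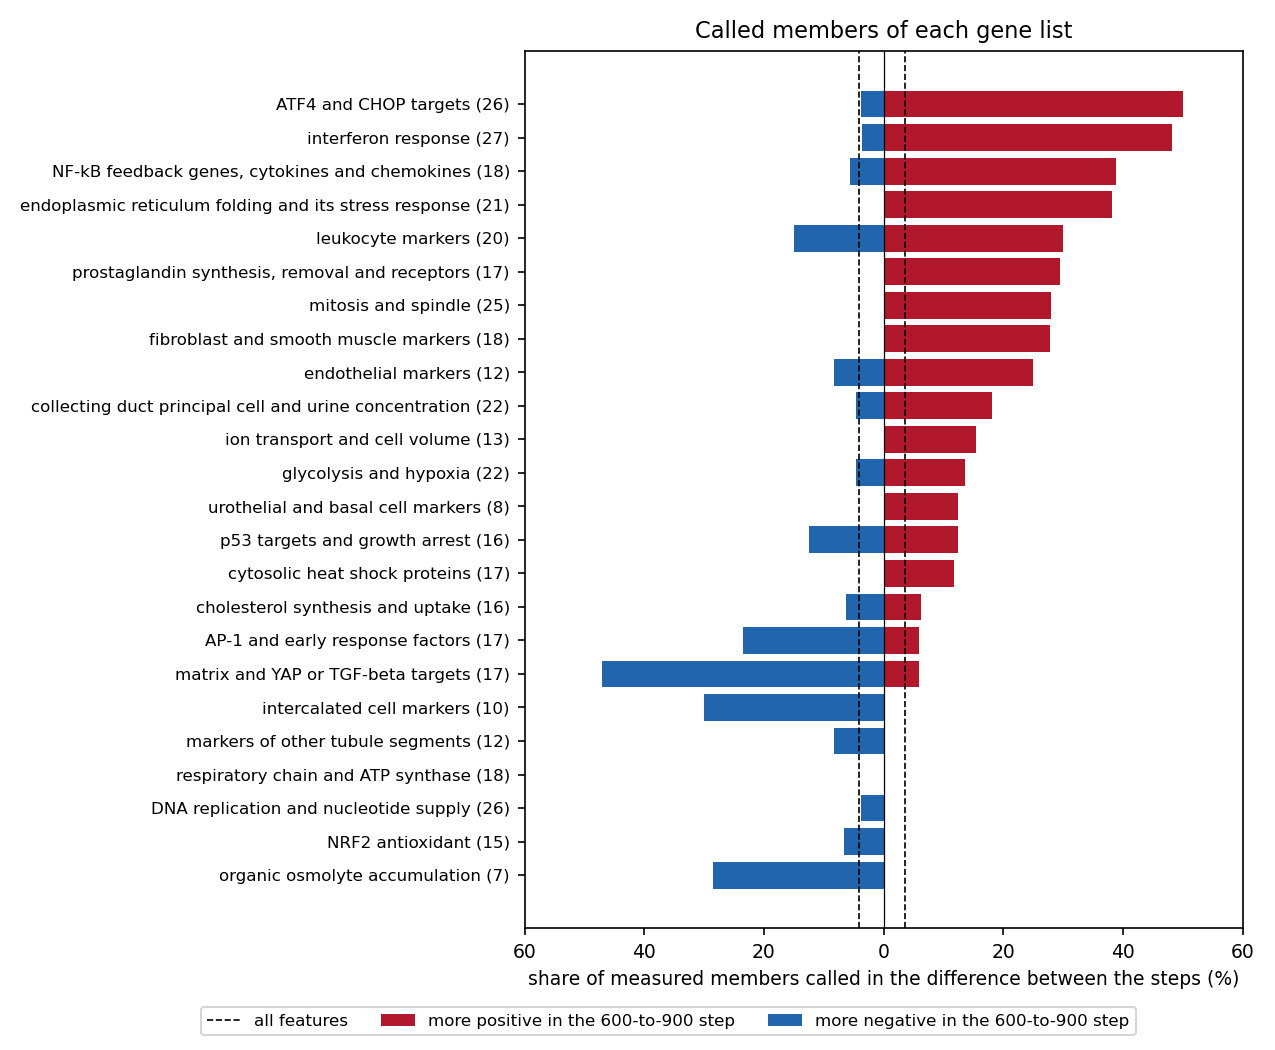
Share of the measured members of each gene list (number in brackets) whose step responses differed, to the right of 0 for members more positive in the step to 900 and to the left for members more negative, in percent. Dashed lines mark the shares over all features, 3.52% and 4.06%; the longest bars are those of the ATF4 and interferon lists on the right and of the matrix list on the left.

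Genes of osmolyte accumulation differed in 2 of 7 measured members, both more negative in the step to 900 (median -0.24), beside 4.06% of all features. Akr1b1, the aldose reductase that makes sorbitol, had 9.12, 9.11 and 9.06 in the 900 challenge against 8.53, 8.52 and 8.46 in the 600 culture, and 8.90, 8.89 and 8.88 in the 600 challenge against 7.04, 7.20 and 7.33 in the 300 culture. It rose in both steps without overlap, by 0.59 and by 1.70, and the difference was -1.11 ± 0.09 (adjusted p = 4.45e-06). A second, dimmer feature of Akr1b1 had -1.08 and did not pass (adjusted p = 0.0641). Its rises were larger than those of the brighter feature, at 1.27 in the step to 900 and 2.35 in the step to 600. Slc38a2, a neutral amino acid carrier, was the other (-0.24), with a call lost in 8 of the 12 fits that left out an array. The inositol carrier gene Slc5a3 rose by 1.07 in the step to 900 and by 0.98 in the step to 600, and Nfat5, the transcription factor that responds to hypertonicity, had 0.23 without a call and 0.48 with one, both without a called difference.

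Ion transport and chaperone genes mostly had no called difference. In the ion and cell volume list, 2 of 13 measured members were more positive, beside 3.52% of all features. Bsnd, the barttin subunit of chloride channels, had 5.91, 5.55 and 5.87 in the 900 challenge against 3.40, 3.21 and 3.38 in the 600 culture, and 2.23, 1.70 and 1.71 in the 600 challenge against 0.93, 1.32 and 1.54 in the 300 culture. The groups did not overlap, but both groups of the step to 600 lay under the lower quartile, and the difference was 1.83 ± 0.26 (adjusted p = 0.000584). The kinase gene Wnk4, with those same groups under the lower quartile, was the other (0.78 ± 0.16). The Na-K-2Cl cotransporter gene Slc12a2 rose by 0.51 and by 0.49. Of 17 heat shock genes, Hsph1 (0.32 ± 0.06) and Hspb1 (0.86 ± 0.08) were more positive, and Hspb1, a small heat shock protein, had opposite calls, with 7.16, 7.21 and 7.14 in the 900 challenge against 6.64, 6.82 and 6.82 in the 600 culture, and 6.20, 6.23 and 6.09 in the 600 challenge against 6.61, 6.61 and 6.66 in the 300 culture.

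In the principal cell list, 4 of 22 measured members were more positive and 1 more negative (median 0.11), beside 3.52% and 4.06% of all features. Avpr2, the vasopressin V2 receptor, had 6.84, 6.71 and 6.64 in the 900 challenge against 5.77, 5.63 and 5.65 in the 600 culture, and 3.71, 3.16 and 3.40 in the 600 challenge against 3.30, 3.26 and 3.50 in the 300 culture. The groups of the step to 600 overlapped, and the difference was 0.98 ± 0.16 (adjusted p = 0.00146). Aqp2 had 8.02, 7.92 and 7.88 in the 900 challenge against 6.84, 6.32 and 6.33 in the 600 culture, and 2.50, 2.00 and 2.35 in the 600 challenge against 1.62, 1.72 and 1.49 in the 300 culture. Its difference of 0.77 ± 0.20 (adjusted p = 0.0317) was lost in 8 of the 12 fits that left out an array. It was also lost in the moderated and the unmoderated fit of the 12 drug-free arrays alone. The means of Aqp2 in both groups of the step to 600 lay under the lower quartile, so the size of its difference is less sure. The transcription factor genes Ehf (0.73) and Gata3 (0.41) were the other 2, and the sialyltransferase gene St6gal1 was more negative (-0.66 ± 0.07). Gata3 and St6gal1 had opposite calls, Gata3 with a rise of 0.19 in the step to 900 and a fall of 0.22 in the step to 600, and St6gal1 with -0.30 and 0.35. The urea transporter gene Slc14a2 rose by 1.25 and by 1.18 with no called difference (0.07 ± 0.16). Its mean in the 300 culture, 1.985, lay under the lower quartile, so the size of the second rise is less sure.

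Most mitotic genes fell in both steps, and where the steps differed the fall was smaller in the step to 900. Of 25 measured members, 19 fell in the step to 900 and 24 in the step to 600, beside 11.0% and 8.07% of all features. The difference was called positive in 7 (Ccnb2, Nuf2, Kif20a, Aurkb, Bub1b, Kif11 and Tpx2) and negative in none (median 0.37), and it lay above 0 in 24. Of all features, 3.52% were called positive and 4.06% negative, and the difference lay above 0 in 12617 of 28328. The cyclin gene Ccnb2 had -0.71 and -1.37, a difference of 0.66 ± 0.14 (adjusted p = 0.0102), and a second feature gave 0.65. The call was lost in 8 of the 12 fits that left out an array for Tpx2, in 5 for Aurkb and in 2 for Bub1b. DNA replication genes did not share this: 12 of 26 fell in each step, with 1 called difference, the polymerase gene Pole (-0.81 ± 0.15), and a median of -0.01. No member of the 18 respiratory chain genes was called in the difference. Among 17 early response genes, Junb (-0.69), Dusp1 (-0.63), Myc (-0.57) and Jun (-0.32) were more negative and Klf2, low in 3 of the 4 groups, more positive (1.07). Of 16 p53 targets, Gadd45a (0.36) and Sesn1 (0.31) were more positive and Plk2 (-0.36) and Mdm2 (-0.29) more negative.

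All called members of the remaining lists follow, and the lists of endothelial and intercalated cell markers among them are short. Of 22 genes of glycolysis and hypoxia, Slc16a3 (0.63), Pgk1 (0.56) and Slc2a1 (0.26) were more positive and Adm (-0.84) more negative. Cholesterol genes gave Fdft1 (0.34) and Nsdhl (-0.30) of 16, and the NRF2 list Nfe2l2 itself (-0.24) of 15. Of 12 endothelial markers, Tie1 (0.84), Tek (0.56) and Esam (0.51) were more positive and Flt1 (-0.41) more negative. Of 10 intercalated cell markers, Car2 (-0.80), which had opposite calls, Slc4a1 (-0.62), under the lower quartile in all 4 groups, and Kit (-0.28) were more negative. Of 12 markers of other tubule segments, Aqp1 was more negative (-0.39), and of 8 urothelial markers, Krt14 was more positive (0.96). The calls for Aqp1, Flt1, Kit, Slc4a1, Adm, Nfe2l2 and Sesn1 were each lost in at least 8 of the 12 fits that left out an array, that for Fdft1 in 4 and that for Slc2a1 in 3. Over all 24 lists, 84 of 420 measured genes were more positive in the step to 900 and 32 more negative, beside 3.52% and 4.06% of all features. Among all 14499 genes with a symbol, each by its brightest feature, 768 were more positive and 717 more negative.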

How the data were processed

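Per the labels' protocols, total RNA came from primary rat IMCD cells by a Qiagen RNeasy kit, and Affymetrix whole-transcript kits made and labelled the cDNA. The authors deposited 1 expression value per feature and array on a log scale (log2, or another base); how the authors summarised and normalized them, and the base of the logarithm, are not given in the sources used here. They ran from 0 to 9.504. No signal over background accompanies them, and precision is limited by how many arrays there are.

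The values were used as deposited, with no filter. Genes were named from the annotation of the platform's probes, which gives 1 symbol for 15295 features, several for 322 and none for 12711, and 15264 matched a RefSeq gene (GRCr8), with 0 symbols changed. limma 3.58.1 in R 4.3.3 fitted 6 group means on all 18 arrays with moderated variances (12 residual and 2.03 prior degrees of freedom). Benjamini-Hochberg adjustment ran over all 28328 features, and calls had an adjusted p under 0.05. The script was tested on simulated data.

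Named genes were the 10 largest positive and 10 largest negative called differences, the 10 with the largest smaller-of-both step changes in each opposite direction, and members of 24 gene lists. Each was taken by its feature with the highest mean, and placeholder, olfactory, vomeronasal and small RNA symbols were passed over. Of 457 list genes, 420 were measured. The comparison, members and lists were chosen with earlier results of these data known, so no list was tested and counts describe it. Alternatives were the 12 arrays alone, centring, quantile normalization, a filter on low values, other variance models, a replicate block and leaving out each array.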

Additional observations from a re-analysis of the deposited data

Results flagged for a closer look

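Responses that differed between the 2 steps were looked at again where the difference itself passed limma's test: 2148 features in all, 108 of them with a rise in the step to 900 and a fall in the step to 600, and 93 with the reverse. The ranges below are those of the difference between the steps over the 12 fits that each left out 1 array, in which all 20 genes stayed called.

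Among genes that rose in the step to 900 and fell in the step to 600, the difference was 2.55 log units for Rnf186 (2.38 to 2.73) and 2.50 for Ptges (2.35 to 2.69). It was 2.06 for Adm2 (1.93 to 2.23), 1.92 for Ttc22 (1.75 to 2.05) and 1.88 for Ccl3 (1.79 to 1.97). Ctse had 1.55 (1.44 to 1.70), Trpm2 1.55 (1.45 to 1.64) and Iah1 1.41 (1.33 to 1.50). Rhbg had 1.36 (1.22 to 1.55) and Pak6 1.26 (1.19 to 1.37).

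Among genes that fell in the step to 900 and rose in the step to 600, Havcr1 had -2.03 (-2.21 to -1.88), Tmc5 -1.36 (-1.46 to -1.27) and Klhl29 -1.11 (-1.21 to -1.02). Pkp1 had -0.99 (-1.03 to -0.94), Simc1 -0.94 (-0.98 to -0.84), Clec4d -0.93 (-0.999 to -0.86) and Car4 -0.93 (-1.02 to -0.83). Dapk2 had -0.91 (-0.98 to -0.82), Bag2 -0.85 (-1.01 to -0.76) and Adra1d -0.84 (-0.91 to -0.76).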

How the results depend on the processing

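No named gene or called list gene changed direction under any alternative, and neither did any feature called in both fits. Which side held more calls did change: 997 positive and 1151 negative calls became 966 and 818 after centring, 1122 and 1077 after quantile normalization, 790 and 715 without replicate 2 of the 600 culture, 774 and 737 without replicate 1 and 801 and 786 without replicate 3 of the 300 culture, and 883 and 829 without replicate 1 of the 600 challenge. The 108 rises and 93 falls in the step to 900 among opposite responses became 121 and 129 without low features, 143 and 147 with an intensity trend and robust prior, 129 and 140 in an unmoderated fit of the 12 arrays, and 94 and 95 without replicate 1 of the 600 culture. The cause was not tested. The 2148 differences became 1711 in the 12 arrays alone, 1784 after centring, 2199 after quantile normalization, 2645 without low features and 2984 with the trend. Leaving out single arrays gave 1505 to 2008 differences, 774 to 906 of them positive and 715 to 1102 negative, with 80 to 94 and 60 to 95 opposite responses. Same-numbered arrays of different groups did not deviate together (median correlation 0.000251 over 18 pairs), so the numbers were not used for pairing; with the replicate number as a block 1939 differences were called. Of 36 named genes, 34 stayed called in every alternative, Serpinb2 and F2rl1 being the exceptions, and of 116 called list genes 85 did. Low signal limits the 258 differences with a group under the lower quartile.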

Other observations

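Both challenges were also run with 5 µM cyclosporin A, and the same difference can be formed with the drug-treated challenges against the same cultures. The cultures are shared, so these values are given side by side and were not tested. The difference between the steps was 2.63 log units with the drug and 2.55 without it for Rnf186, 2.33 and 2.50 for Ptges, 2.02 and 1.88 for Ccl3, and -2.09 and -2.03 for Havcr1. Chac1 had -0.13 with the drug and 1.61 without it, Ptgir 0.26 and 0.90, and Car4 -0.44 and -0.93. For Chac1 the SE was 0.35 with and without the drug. Its means in 3 drug-free groups and in the 900 challenge with the drug (2.495) lay under the lower quartile. Il1b had 2.07 with the drug and 1.38 without it, and Ccl20 1.83 and 0.77.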
